A study of Mus musculus with 16 samples.

Results

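The interferon response and antigen presentation genes are a list of 39 mouse genes. They were measured here in the efferent ducts and the caput epididymis after castration and hormone injection. A member was taken from the probe sets that name exactly 1 gene symbol, with the brightest probe set standing for the gene. By this rule 37 of the 39 were measured, among 18193 genes on the array. Ifi44 was not matched to a probe set with its symbol, and the only probe set of Isg15 also names Gm9706, so no value is given for either. The list names genes by their function and was chosen with earlier results of these data known. Measured intensity also entered in the choice among the probe sets of 1 gene.

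RNA came from adult male mice of strain 129BL/6 and was measured on 16 one-colour Affymetrix arrays, 8 per tissue. The 4 groups of each tissue were sham-castrated mice given vehicle, castrated mice given vehicle, castrated mice given testosterone propionate (TP, an injectable ester of testosterone) and castrated mice given estradiol (E2), with 2 arrays per group. Either hormone was given at 0.015 mg on day 14 after surgery, vehicle was 100 µL of 10% ethanol in sesame oil, and tissue was taken 12 hours later. All 4 groups thus had surgery and an injection, and both hormone groups lacked the testis. The labels do not say whether 2 arrays of a group came from separate animals, so p-values measure the spread between these samples only, which may be technical. For the ducts 50 ng of RNA was labelled with an amplification kit, against 10 µg with a direct kit for the caput, so tissue and kit cannot be told apart.

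Interferons are secreted proteins that cells release on sensing viral nucleic acid or, for interferon gamma, that lymphocytes release on activation. They signal through JAK kinases to STAT and IRF transcription factors, which switch on antiviral effectors, GTPases that attack intracellular pathogens, and the machinery that loads peptides on MHC molecules. MHC class I molecules show peptides made by the proteasome to cytotoxic T cells, and class II molecules on macrophages, dendritic cells and B cells show peptides to helper T cells. The epididymis holds a dense network of mononuclear phagocytes along its epithelium, and sperm carry proteins that the immune system may treat as foreign.

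The deposited values are probe set intensities on a linear scale, and every difference below is of log2 intensity, in which 1.00 is a doubling. Per array, the highest of 27 Bacillus control probe sets, which match no mouse RNA, was taken as background and lay between 2.33 and 14.3. Hormone-treated ducts had a background of only 2.33 to 3.97, while ducts given vehicle had 8.09 to 14.3. The share of all genes above background was 86.9% to 90.3% in the former and 71.0% to 78.6% in the latter. A dim gene could thus pass at a lower intensity in hormone-treated ducts. Of the 37 members, 33 were above background on all 16 arrays. Cxcl10 was above it on 15 arrays, Stat2 on 14, Cxcl9 on 10 and Mx2 on 8. In the ducts the actin 3' over 5' ratio, which rises as transcripts get shorter, ranged in log2 from 3.11 to 3.87 over the 4 vehicle arrays, against 0.913 to 1.93 in hormone-treated ducts. Duct comparisons of hormone with vehicle thus also compare arrays of different actin ratio. Whether RNA quality or the amplification step set the ratio was not tested. In the caput it was 0.636 to 1.20. The summed level of 8 caput epithelial genes was 61920 and 62070 on the sham caput arrays, and that of 6 efferent duct genes was 5938 and 6127 on the sham duct arrays against 1097 and 1112 in the sham caput. The sham duct arrays also held 5513 and 9165 of the caput sum. Fewer cells of a type and less RNA per cell cannot be told apart in tissue RNA.

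**Figure D1:**
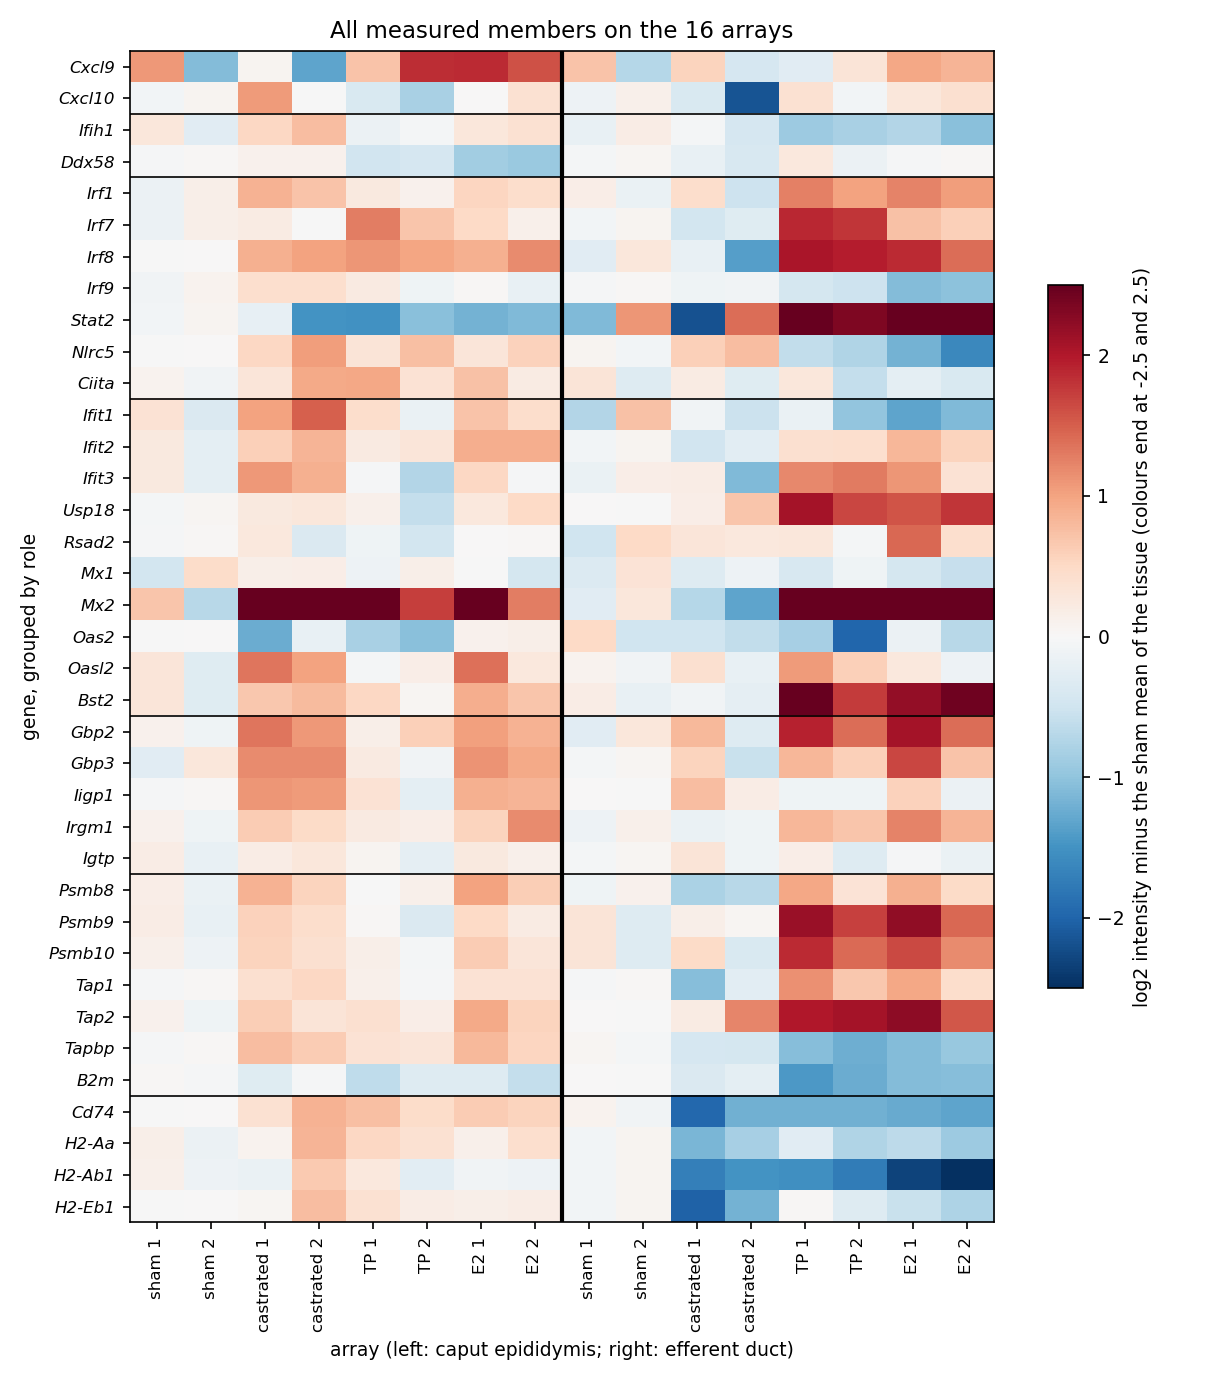
Rows are the 37 measured members grouped by role, columns are the 16 arrays, and colour is log2 intensity minus the mean of the 2 sham arrays of that tissue. In the caput, 33 and 30 of the 37 members lay above the sham mean on the castrated arrays, against 15 and 7 in the ducts.

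The first question was which members changed in the caput once the testis was gone. Of the members, 6 rose and none fell: the GTPases Gbp2, Gbp3 and Iigp1, the transcription factors Irf1 and Irf8, and Tapbp of the class I loading complex. Their rises lay between 1.64-fold and 2.33-fold. These 6 were 16.2% of the 37 members, against 14.0% of all 18193 genes called in that comparison, 7.9% higher and 6.12% lower. The share called was therefore close to the background. The direction was uneven: 32 of 37 members were higher in the castrated mean, with a median difference of 0.53 against 0.06 over all genes. For 27 members both castrated arrays lay above both sham arrays, which was so for 35.1% of all genes, and for 3 members both lay below, against 27.6%.

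All 5 interferon-inducible GTPases were higher on both castrated arrays than on either sham array, 3 passed the test, and the median difference was 1.08. Gbp2, a guanylate-binding protein that coats and breaks pathogen vacuoles, read 65.0 and 56.2 on the sham arrays and 154 and 129 on the castrated arrays. It rose 2.33-fold (log2 difference 1.22, 95% interval 0.71 to 1.73, limma adjusted p = 0.0227). Gbp3, a second member of that family, read 34.4 and 51.3 in sham and 95.5 and 95.4 in castrated mice. Its rise was 2.27-fold (1.18, interval 0.60 to 1.77, adjusted p = 0.0336). Iigp1, an immunity-related GTPase that acts on vacuoles of intracellular parasites, read 100.4 and 104 in sham and 220.4 and 213 in castrated mice, with no overlap and little spread within either pair. It rose 2.12-fold (1.08, interval 0.55 to 1.62, adjusted p = 0.0333). Irgm1, which regulates the other immunity-related GTPases, read 135 and 116 and then 193 and 175 but missed the threshold (adjusted p = 0.18). Igtp of the same family differed least, by 0.24 (adjusted p = 0.437).

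Of 7 transcription factors, 2 rose and 6 had a higher castrated mean. Irf1, a factor that interferon gamma induces and that activates GTPase and class I genes, read 199.9 and 246 in sham and 406 and 362 in castrated mice. The rise was 1.73-fold (0.79, interval 0.40 to 1.18, adjusted p = 0.0335). Irf8, a factor needed for macrophage and dendritic cell development, read 56.2 and 56.5 in sham and 105 and 114 in castrated mice. Its 1.94-fold rise (0.95, interval 0.59 to 1.32) had the smallest adjusted p of the list, 0.0184. Nlrc5, the activator of class I genes, read 31.2 and 31.3 in sham and 44.7 and 64.3 in castrated mice without passing (adjusted p = 0.0969). Ciita, the master activator of class II genes, and Irf9, the DNA-binding part of the type I interferon complex, differed by 0.62 and 0.42 (adjusted p = 0.277 and 0.164). Irf7, which amplifies type I interferon production, was close to its sham level, at 119 and 103 against 93.3 and 114. Stat2, the partner of Irf9, was the 1 factor with a lower castrated mean, at 59.6 and 24.5 against 66.4 and 72.1 (adjusted p = 0.251), with the castrated arrays far apart.

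**Figure D2:**
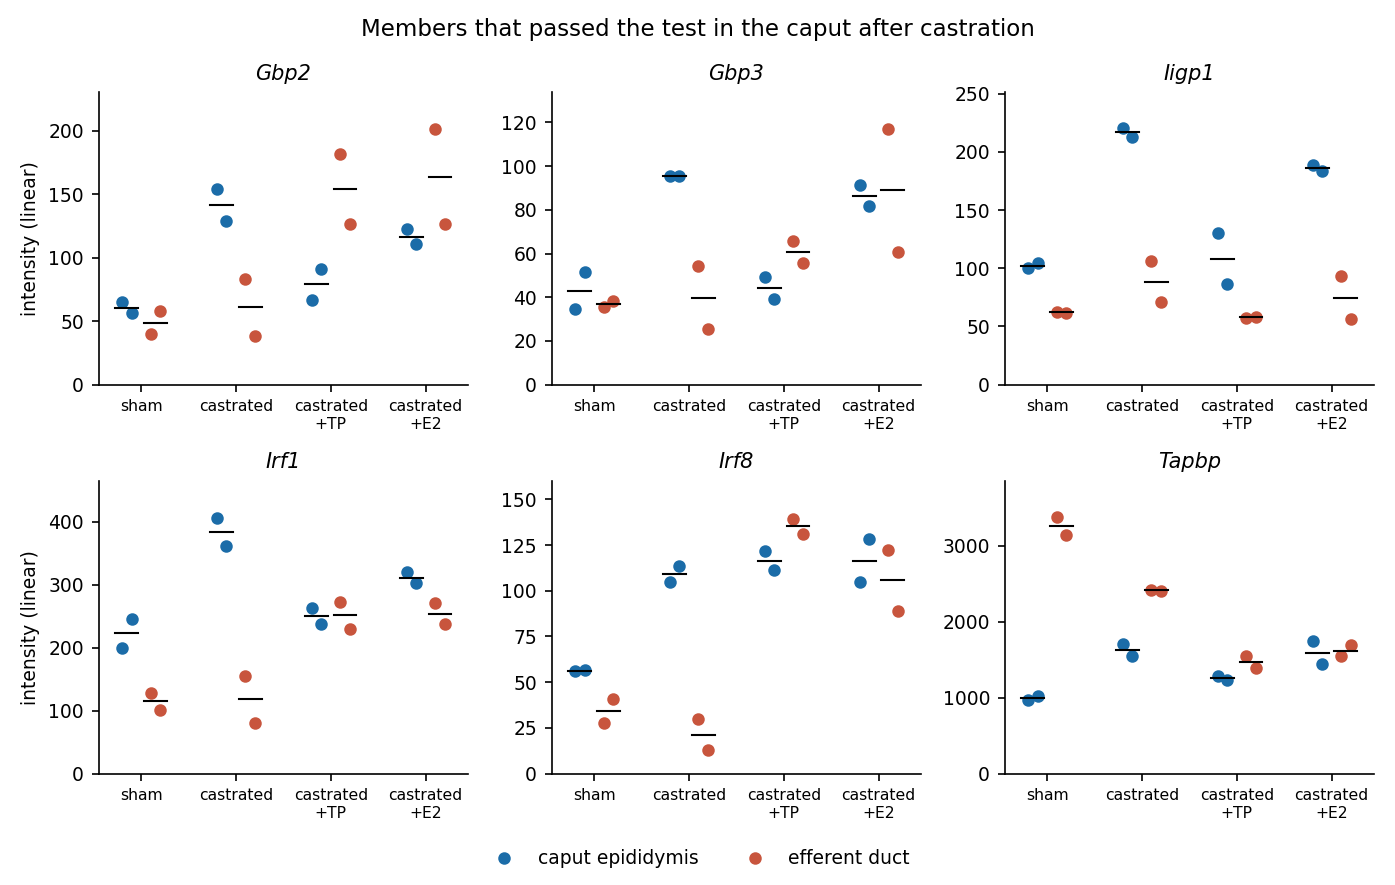
Points are the intensity of each array (linear scale from 0) by treatment, blue for caput and red for efferent duct, and black lines are the means of 2 arrays. In the caput both castrated arrays of each of the 6 genes lie above both sham arrays.

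Promoters of the genes that rose are shown because the known binding motifs of these pathways are short and can be read by eye. Sequences are from RefSeq (GRCm38.p6), 250 bases up to the transcription start, 5′ to 3′ on the plus strand, with matches to GAAANNGAAA or its reverse complement TTTCNNTTTC (the core of the interferon-stimulated response element) or to the palindrome TTCNNNGAA (the gamma-activated site) in capitals. Gbp3 (chr3:142559794-142560043) and Gbp2 (chr3:142620413-142620662) hold the first motif, Irf8 (chr8:120736108-120736357) and Irf1 (chr11:53769764-53770013) the second, and Tapbp (chr17:33919228-33919477) neither. Where RefSeq lists 2 start sites (Gbp3, Irf8, Irf1), the more upstream is shown, and the other window holds no match.
Gbp3: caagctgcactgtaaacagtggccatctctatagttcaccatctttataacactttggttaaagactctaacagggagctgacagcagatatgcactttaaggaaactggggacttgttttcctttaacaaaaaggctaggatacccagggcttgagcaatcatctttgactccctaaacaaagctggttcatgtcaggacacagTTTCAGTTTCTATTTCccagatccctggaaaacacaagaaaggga
Gbp2: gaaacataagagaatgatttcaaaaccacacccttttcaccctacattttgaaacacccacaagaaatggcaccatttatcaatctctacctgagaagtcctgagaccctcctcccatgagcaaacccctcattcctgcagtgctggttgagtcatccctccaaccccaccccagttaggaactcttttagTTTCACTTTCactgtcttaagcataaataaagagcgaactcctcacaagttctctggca
Irf8: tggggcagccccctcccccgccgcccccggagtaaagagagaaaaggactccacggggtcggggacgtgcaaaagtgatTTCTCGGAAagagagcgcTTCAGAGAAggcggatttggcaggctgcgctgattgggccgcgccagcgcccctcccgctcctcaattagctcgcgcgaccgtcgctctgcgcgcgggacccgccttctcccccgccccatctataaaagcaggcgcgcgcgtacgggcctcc
Irf1: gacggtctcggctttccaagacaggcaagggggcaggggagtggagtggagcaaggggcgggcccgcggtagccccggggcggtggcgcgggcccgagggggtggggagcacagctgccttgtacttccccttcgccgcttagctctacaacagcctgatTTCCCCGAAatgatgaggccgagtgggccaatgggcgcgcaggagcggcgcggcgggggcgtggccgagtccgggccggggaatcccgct
Tapbp: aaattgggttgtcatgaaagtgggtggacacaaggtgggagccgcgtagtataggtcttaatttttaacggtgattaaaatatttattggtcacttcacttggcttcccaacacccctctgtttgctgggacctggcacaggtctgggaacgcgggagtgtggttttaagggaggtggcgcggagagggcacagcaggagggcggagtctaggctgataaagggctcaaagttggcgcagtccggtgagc

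Read from the sequences, Gbp3 has 2 overlapping copies that start 45 and 39 bases before its start site, and Gbp2 has 1 copy 59 bases before. In Irf8 the palindrome occurs 171 and 153 bases before the start and in Irf1 90 bases before it. The table held 34 windows for 29 of the 39 members, each running from 250 bases before to 50 after a start. The first motif was found in 14 of these 34 windows (41.2%) against 3.44% of all 32851 windows, and the palindrome in 6 (17.6%) against 8.3%. Both strands were searched. Members with the first motif that did not pass the test in the caput included Stat2, Igtp, Irgm1, Ifit1, Ifit3, Bst2 and B2m, so the motif was present in genes that were called and genes that were not. Psmb9 and Tap1 face away from each other with start sites 226 bases apart, and their windows share 275 bases. Iigp1, Cd74, H2-Ab1, Ciita, Nlrc5, Oas2, Mx1, Mx2, Tap2 and Usp18 had no entry. A match is a description of the letters and was not tested as a binding site.

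Of the 7 class I processing and presentation genes, 1 rose and the other 6 did not pass. Tapbp encodes tapasin, which holds empty class I molecules at the peptide transporter, and read 969.9 and 1015 in sham and 1702 and 1549 in castrated mice. It rose 1.64-fold (0.71, interval 0.36 to 1.06, adjusted p = 0.0338). A second, dimmer Tapbp probe set differed by only 0.10, and with the mean of both probe sets the call was lost (0.41, adjusted p = 0.303; over the other 7 alternatives that kept both arrays of each group the adjusted p was 0.00124 to 0.086). The catalytic subunits Psmb8, Psmb9 and Psmb10 form the immunoproteasome, which interferon gamma induces in place of the constitutive subunits Psmb5, Psmb6 and Psmb7. Psmb8 read 174 and 139 in sham and 285 and 229.6 in castrated mice (difference 0.72, adjusted p = 0.0844), Psmb9 110.2 and 85.4 in sham and 144 and 132 in castrated mice (0.51, 0.184), and Psmb10 225 and 189 in sham and 303 and 273 in castrated mice (0.48, 0.139). None of the 3 passed, although no castrated array overlapped a sham array. Of their constitutive counterparts 2 of 3 fell. Psmb5 read 1207 and 1135 in sham and 589 and 539 in castrated mice and fell 2.08-fold (-1.05, adjusted p = 0.0148). Psmb7 fell 1.71-fold, from 2239.7 and 2114 to 1357 and 1192 (adjusted p = 0.0332). Psmb6 differed by -0.20 (adjusted p = 0.271).

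**Figure D3:**
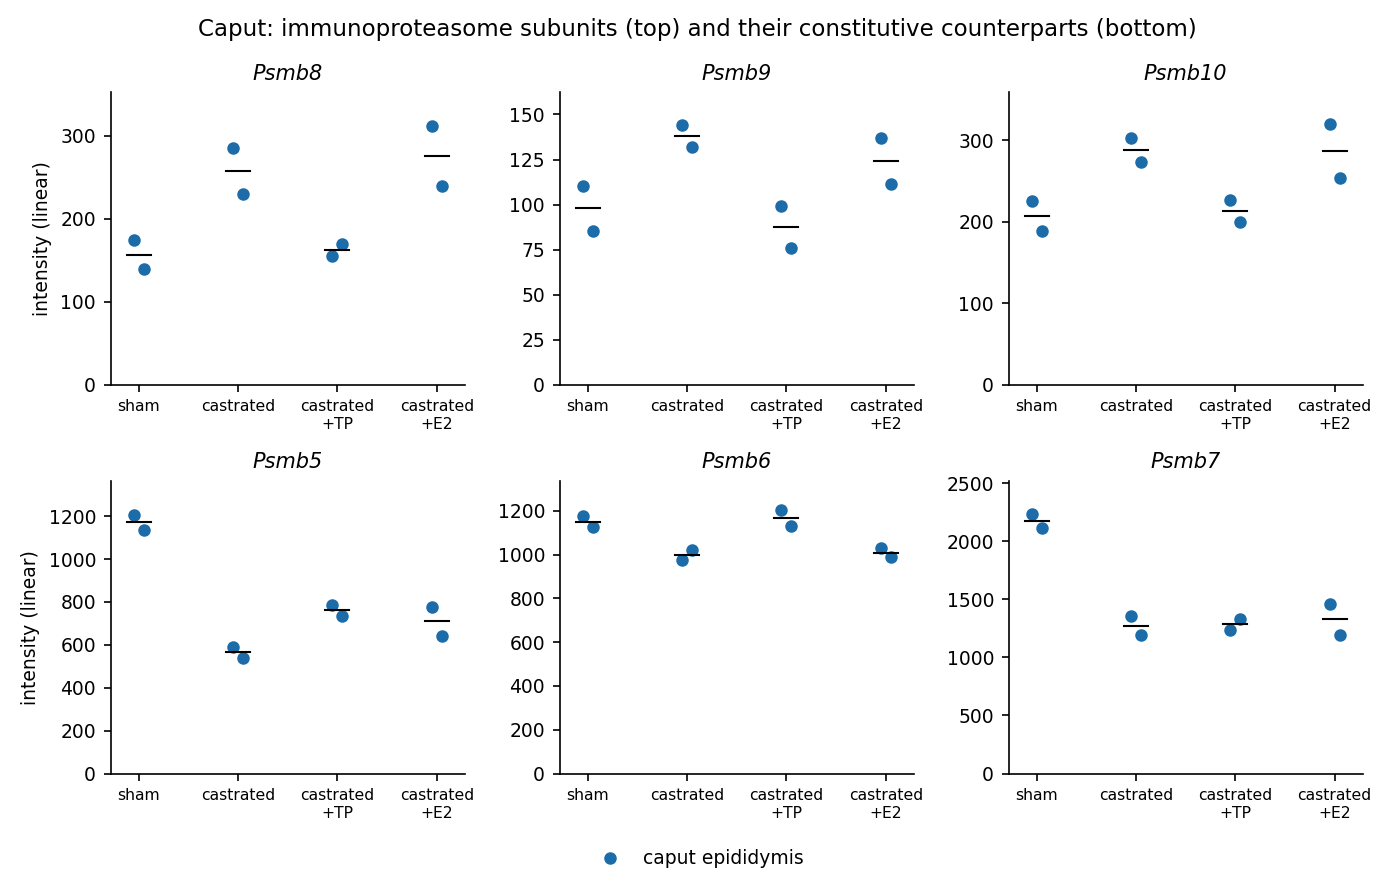
Points are caput array intensities (linear scale from 0) by treatment for the immunoproteasome subunits (top) and their constitutive counterparts (bottom), with means as lines. Castrated arrays lie above sham for the 3 subunits on top and below sham for the 3 at the bottom.

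The peptide transporter genes Tap1 and Tap2 differed by 0.45 and 0.46 (adjusted p = 0.0636 and 0.2), with castrated arrays above sham arrays for both. B2m, the light chain of every class I molecule and by intensity the strongest signal on the list, was lower in castrated mice, at 4412 and 5279 against 5501 and 5338 (-0.17, adjusted p = 0.584). The class I heavy chains H2-K1 and H2-D1, which are not on the list, differed by -0.18 and 0.04, with intervals of -0.60 to 0.24 and -0.31 to 0.39.

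None of the 10 measured antiviral effectors passed, although 8 had a higher castrated mean and their median difference was 0.73. Ifit1, Ifit2 and Ifit3, which bind viral RNA or its translation machinery, differed by 1.26, 0.72 and 0.99. Ifit2 came nearest to the threshold, reading 51.0 and 36.5 in sham and 65.5 and 77.5 in castrated mice (adjusted p = 0.0693). Ifit1 read 28.3 and 17.0 and then 44.1 and 62.0, and Ifit3 74.7 and 52.5 and then 133 and 116 (adjusted p = 0.0775 and 0.118). Oasl2, of the oligoadenylate synthetase family, read 72.1 and 46.9 and then 147 and 117 (adjusted p = 0.13). Bst2, or tetherin, which tethers budding virus to the cell, differed by 0.73 (adjusted p = 0.136). Usp18, which removes Isg15 from proteins and dampens interferon signalling, and Mx1, a dynamin-like GTPase, differed by 0.26 and 0.16. Rsad2, or viperin, and Oas2 had lower castrated means, with differences of -0.05 and -0.72 (adjusted p = 0.904 and 0.231). Mx2, a second dynamin-like GTPase, was below background on both sham arrays and read 12.9 and 25.6 in castrated mice. Set against the background of 10.7 and 12.3 on the sham arrays in place of its own level there, it was at least 1.59-fold higher, and it did not pass (adjusted p = 0.0796).

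Neither cytosolic RNA sensor passed. Ifih1 (MDA5) read 156 and 104 in sham and 183 and 217 in castrated mice (adjusted p = 0.12), and Ddx58 (RIG-I) 196 and 202 in sham and 214 and 216 in castrated mice (adjusted p = 0.528). Cxcl9 and Cxcl10, the chemokines that draw activated T cells, gave no shared direction. Cxcl9 was below background on all sham and castrated caput arrays. Cxcl10 read 36.2 and 39.7 in sham and 79.6 and 37.5 in castrated mice, with only 1 castrated array above both sham arrays.

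The class II genes had higher castrated means in the caput, by 0.44 at the median, and none of the 4 passed. Cd74, the invariant chain that guides class II molecules to the endosome, read 846 and 865 in sham and 1119 and 1561 in castrated mice (difference 0.63, adjusted p = 0.1). H2-Aa, H2-Ab1 and H2-Eb1, the chains of the class II molecules themselves, differed by 0.47, 0.25 and 0.41. All 4 genes were brighter on the second castrated array than on the first, by 0.74 at the median, and for H2-Aa and H2-Ab1 the castrated and sham arrays overlapped. H2-DMa and H2-DMb2, from the exchange factor that loads class II molecules and outside the list, fell 2.36-fold and 3.54-fold (adjusted p = 0.0165 and 0.0237). H2-DMa read 289 and 218 in sham and 98.6 and 115 in castrated mice.

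Genes of the same pathways outside the list were examined with the same fit. In the caput comparison of castrated with sham, 7.9% of all genes were called higher and 6.12% lower. Of 48 measured interferon-stimulated effectors, 14 rose and 1 fell in the caput after castration, with a median difference of 0.53. Rtp4, an interferon-induced inhibitor of viral replication, read 83.7 and 86.2 in sham and 281 and 265 in castrated mice and rose 3.21-fold (adjusted p = 0.00476). Ifitm1, a membrane protein that restricts virus entry, rose 4.16-fold, and Uba7, the activating enzyme for Isg15, 2.70-fold (adjusted p = 0.0114 and 0.00976). Ifi47, a GTPase related to Iigp1, and Trim30a rose 2.58-fold and 3.32-fold (adjusted p = 0.0107 and 0.0111). Ido1, which degrades tryptophan and is a textbook interferon gamma target in immune cells, went the opposite way, from 4947 and 4529 in sham to 173 and 261 in castrated mice, and fell 22.3-fold (adjusted p = 0.00289). Among 25 signalling genes 4 rose and none fell. They were Socs3, Tlr4, Dhx58 and Trim25. Socs3, the feedback inhibitor of cytokine signalling, read 19.3 and 24.7 in sham and 413 and 206 in castrated mice, 13.4-fold higher (adjusted p = 0.00801). Among 11 interferon ligands and receptors Ifnlr1 rose and Il10rb fell, 2.06-fold and 1.57-fold. Among 26 other antigen presentation genes 3 rose (Psme1, Fcgrt and H2-Q2) and 3 fell (H2-DMa, H2-DMb2 and Pdia3).

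Some markers of immune cells were also higher in the castrated caput, and others were not. Of all genes 7.9% were called higher there and 6.12% lower. Of 21 measured macrophage and dendritic cell markers, 5 rose and none fell in the castrated caput (Cd14, Ptprc, Ccr2, Tyrobp and Itgax). Their summed level was 2750 and 2811 in sham, 3394 and 3593 in castrated, 3032 and 3270 in TP and 3922 and 4193 in E2 mice. Csf1r and Adgre1, which define macrophages, differed by 0.04 and -0.03. Cd68 was lower without passing, at 174 and 168 in sham and 119 and 93.6 in castrated mice. The sum of 14 T and NK cell markers went from 144 and 193 in sham to 248 and 250.0 in castrated mice, with only 3 of the 14 above background on all caput arrays. That of 9 B and plasma cell markers went from 603 and 731 to 1754 and 2346, with 5 of the 9 above background on all caput arrays. Most of this sum was Blnk (466 and 563, then 1165 and 1293) and Igha (32.8 and 33.7, then 396 and 710). Cd79a read 12.5 and 7.57 and then 1.86 and 10.0, and Cd79b 1.58 and 15.8 and then 16.2 and 19.4. The 7 endothelial markers summed to 773 and 700.2 in sham and 480 and 519 in castrated mice, and none passed. Of the 8 caput epithelial genes 7 fell, with a sum of 6002 and 5787 in castrated mice against 62070 and 61920 in sham. The part of any of these cells in the members' differences was not tested. The caput calls rest on every array: with any of the 4 arrays left out, none of the 6 members passed and 326 to 523 of all genes did, against 2550.

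Testosterone propionate given to castrated mice was compared with vehicle in castrated mice to see whether 12 hours of androgen changed the caput members. No member passed, against 1.67% of all genes. The direction was downward for 33 of 37 members, with a median of -0.40 against -0.05 over all genes. Both TP arrays lay below both castrated arrays for 23 members, which was so for 29.4% of all genes. This comparison shares its castrated arrays with the one above, so a high castrated reading enters both.

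All 5 GTPases were lower without overlap, with a median of -0.85. Gbp3 read 49.2 and 39.4 in TP mice, 95.5 and 95.4 in castrated mice and 34.4 and 51.3 in sham mice (TP minus castrated -1.12, adjusted p = 0.0891). Iigp1 read 131 and 86.2 in TP mice (TP minus castrated -1.03, adjusted p = 0.0876), on either side of its sham values. Gbp2 read 67.0 and 91.1 (-0.85, adjusted p = 0.114). Ifit3, Ifit1, Oasl2 and Cxcl10 made up the 6 largest differences together with Gbp3 and Iigp1, at -1.37, -1.12, -1.11 and -1.12, with adjusted p from 0.121 to 0.247. All 7 class I genes had a lower TP mean, at -0.40 in the median, with -0.66 for Psmb8 and -0.67 for Psmb9.

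Irf8 and Irf7 were among the 4 members with a higher TP mean. Irf8 read 122 and 111 in TP mice against 105 and 114 (difference 0.09, interval -0.27 to 0.46). Irf7 was higher, at 250.1 and 168 against 119 and 103 (difference 0.89, interval 0.24 to 1.54, adjusted p = 0.158). Outside the list, Rtp4 and Herc6 fell 2.30-fold and 2.80-fold with TP, and Ido1 rose 5.52-fold to 1054 and 1306 (adjusted p = 0.0287, 0.0315 and 0.0287). No other effector of the 48 passed.

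Against sham, 1 member passed in TP mice, beside 9.16% of all genes (4.65% higher and 4.51% lower): Irf8 rose 2.06-fold (1.05, adjusted p = 0.023). The median member difference was 0.07, against 0.03 over all genes. Of the 5 other genes that had risen with castration, TP minus sham was 0.37 for Gbp2, 0.07 for Gbp3, 0.05 for Iigp1, 0.17 for Irf1 and 0.34 for Tapbp. The next largest differences among members above background in both groups were -1.28 for Stat2, 0.99 for Irf7, -0.93 for Oas2, 0.66 for Ciita, 0.61 for Cd74 and -0.60 for Cxcl10, none past the threshold. With any of the 4 arrays left out Irf8 did not pass, and the share of all genes called was 0.269% to 0.621%.

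Estradiol was compared in the same way. No member passed between E2 and vehicle in castrated mice and no gene of the 18193 did (0.0%), while 3 members and 2637 genes had an unadjusted p under 0.05. The median was -0.16 and 26 members were lower. Ddx58 had the largest difference among members above background, reading 109.6 and 105 in E2 mice and 214 and 216 in castrated mice (-1.01, interval -1.27 to -0.74, adjusted p = 0.0667). Oas2 was next, at 0.84, followed by Ifit3, Ifit1, Irf9 and Mx1 at -0.73, -0.68, -0.50 and -0.38.

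Against sham, E2 mice had 7 members called, 6 higher and 1 lower (18.9%), beside 17.2% of all genes (9.99% higher and 7.26% lower), so that the share was again close to the background. Gbp2, Gbp3, Iigp1, Irf8 and Tapbp were higher, as in castrated mice given vehicle, with differences of 0.95, 1.04, 0.87, 1.04 and 0.68. Ifit2 joined them, at 80.6 and 80.8 in E2 mice (0.90, adjusted p = 0.0371). Ddx58 fell 1.86-fold (-0.89, adjusted p = 0.00986), the 1 member called lower in any caput comparison. Its other probe sets differed by only -0.11 and 0.27. With the mean of all probe sets no member was called lower, so this fall depends on the probe set. Irf1 differed by 0.49 without passing (adjusted p = 0.0902). Without the first or the second sham array no member passed, beside 3.33% and 4.54% of all genes. Without the first E2 array 3 did and without the second 2, beside 5.98% and 7.35%.

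The 2 hormones were set against each other directly at the same dose and time. No member passed between TP and E2 in the caput, beside 2.12% of all genes. The median was -0.34 (TP minus E2) against -0.06 over all genes, and 25 members were lower in TP mice. All 5 GTPases were lower without overlap, as were 27.9% of all genes, with -0.97 for Gbp3 (interval -1.56 to -0.38, adjusted p = 0.124) and -0.81 for Iigp1 (interval -1.35 to -0.28, adjusted p = 0.148). Oas2, Cxcl10, Psmb8 and Oasl2 differed by -1.05, -0.79, -0.75 and -0.75. For Irf8 the difference was 0.01 (interval -0.36 to 0.37). Outside the list 3 pathway genes passed: Ifi47, the GTPase related to Iigp1, was 2.48-fold lower in TP mice (adjusted p = 0.0329), H2-DMa 2.73-fold lower and Pias1, an inhibitor of STAT signalling, 1.76-fold higher.

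In the efferent ducts no member passed after castration, beside 0.291% of all genes. The largest differences were those of the class II genes, which were lower in castrated ducts. The median was -0.24 against 0.02 over all genes, and 25 of 37 members were lower. Among them were all 4 class II genes, whose arrays did not overlap and whose median was -1.59. The castrated and sham arrays did not overlap for 18 members (14 lower and 4 higher), against 47.5% of all genes.

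Cd74 read 4609 and 4041 on the sham duct arrays and 1103 and 1887 on the castrated arrays (difference -1.58, interval -2.29 to -0.87, adjusted p = 0.103). H2-Ab1, a beta chain of the class II molecules, read 2422 and 2631 in sham and 776 and 901 in castrated ducts (-1.59, interval -2.08 to -1.11, adjusted p = 0.0558). H2-Eb1 read 1068 and 1159 in sham and 275 and 493 in castrated ducts (-1.60, adjusted p = 0.117). The castrated and sham readings of these 3 genes were far apart, and every adjusted p stayed above 0.05. H2-Aa, the alpha chain, read 1438 and 1579 in sham and 679.9 and 846 in castrated ducts (-0.99, adjusted p = 0.16). Its 3 other probe sets differed by -0.60, -1.77 and -2.00, and the 2 other probe sets of H2-Ab1 by -1.71 and -1.76. As in the caput, all 4 genes were brighter on the second castrated array, by 0.54 at the median.

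**Figure D4:**
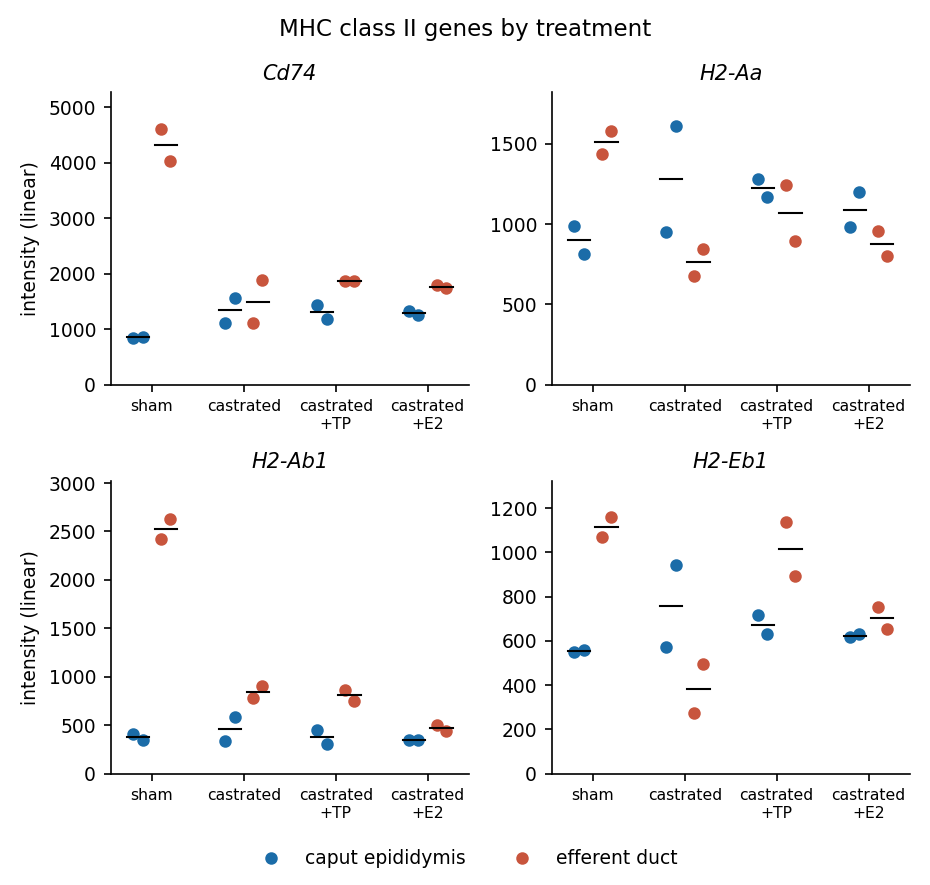
Points are array intensities (linear scale from 0) by treatment for the 4 class II genes, blue for caput and red for efferent duct, with means as lines. The sham duct arrays stand above the castrated duct arrays for all 4, and in the caput no castrated mean lies below the sham mean.

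Beyond class II, Irf8 and Psmb8 had the largest duct differences among members above background, -0.78 and -0.75. Irf8 read 27.8 and 41.0 in sham and 29.7 and 12.9 in castrated mice (adjusted p = 0.446). The GTPases that had risen in the caput differed by 0.24 for Gbp2, 0.00 for Gbp3 and 0.48 for Iigp1, with wide intervals (-0.97 to 1.44 for Gbp2). Nlrc5 was higher in castrated ducts, at 1146 and 1309.6 against 798 and 729 (adjusted p = 0.235). The macrophage and dendritic cell markers summed to 5483 and 7186 in sham and 5998 and 3885 in castrated ducts, overlapping, and none of 21 passed. The actin ratio was 3.13 and 3.18 on the sham arrays and 3.11 and 3.87 on the castrated arrays. The part of either in the class II difference was not tested. Of the 110 measured pathway genes outside the list none passed in the ducts, and their median was -0.03.

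The castration difference itself was then compared between the tissues in 1 fit of all 16 arrays. It was lower in the ducts than in the caput for 4 members, Cd74, H2-Ab1, H2-Eb1 and Tapbp, and higher for none, which is 10.8% of the members against 3.23% of all genes called, 1.96% lower and 1.27% higher. The duct minus caput value was -2.21 for Cd74 (interval -2.99 to -1.42, adjusted p = 0.0155), -2.01 for H2-Eb1 (-2.94 to -1.07, 0.0374), -1.84 for H2-Ab1 (-2.69 to -0.99, 0.0366) and -1.14 for Tapbp (-1.58 to -0.71, 0.0185). Tapbp read 3382 and 3136 in sham and 2422 and 2403 in castrated ducts, the opposite direction to its rise in the caput. H2-Aa followed at -1.46 without passing (adjusted p = 0.0743), as did Ifit2 at -1.09 (0.0559), Psmb8 at -1.46 (0.06) and Irf8 at -1.74 (0.0941). The sign was negative for 31 of 37 members, with a median of -0.83 against -0.08 over all genes. For the GTPases the difference between tissues did not pass (Gbp3 -1.18, interval -2.41 to 0.05, adjusted p = 0.278), so their rise is not shown to be particular to the caput. Outside the list 8 of 110 pathway genes passed and all were lower, among them Rtp4 (-2.00, adjusted p = 0.00959) and Uba7 (-1.46, 0.0171). The count of members passing was 0 without the first sham or the second castrated caput array (0.846% and 0.797% of all genes), 1 without the second sham caput or the first sham duct array (1.2% and 1.89%) and 2 without the second sham duct array (2.5%). Of 21 macrophage and dendritic cell markers, 18 were lower in this comparison and none passed, with a median of -0.87, and their part in it was not tested.

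**Figure D5:**
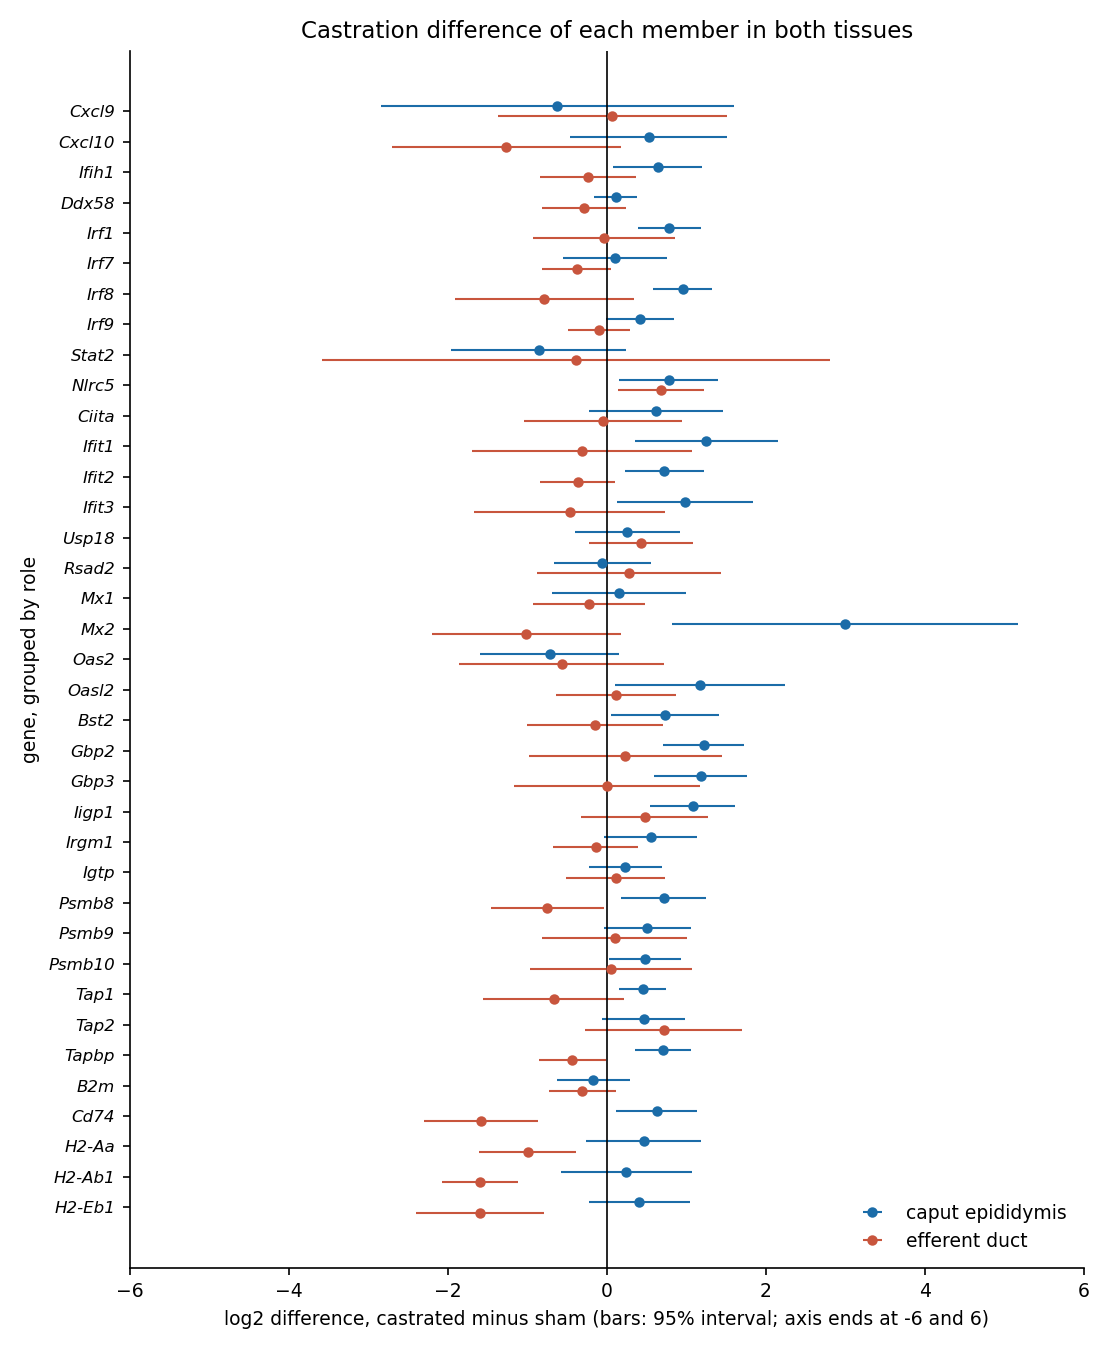
The x axis is the castrated minus sham difference in log2 intensity of each member with its 95% interval, blue for caput and red for efferent duct. For the 4 class II genes the duct point lies left of the caput point, with medians of -1.59 and 0.44.

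Hormone and vehicle were compared in the ducts as well, across the split in actin ratio given above. With TP 14 members were called higher and 3 lower than in castrated vehicle ducts (45.9%), beside 35.5% of all genes (23.2% higher and 12.3% lower). With E2 10 were called higher and 4 lower (37.8%), beside 30.7% (20.0% higher and 10.7% lower). Median member differences were 0.72 and 0.93, and those of all genes 0.23 and 0.25, so that a general shift of the hormone arrays is part of each value. Quantile normalization, which forces all arrays to one distribution, brought the all-gene medians to -0.03 and -0.04, the member medians to 0.34 and 0.46, and the calls to 6 higher and 5 lower with TP and 2 higher and 3 lower with E2, beside 21.9% and 20.0% of all genes. With E2 the members' share was then below that of all genes.

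Of the 7 class I processing genes all were called with TP and 4 with E2. Psmb9 read 42.7 and 39.8 in castrated ducts, 172 and 126 with TP and 178 and 104 with E2 (TP minus castrated 1.83, adjusted p = 0.0161). Psmb10 read 160.0 and 88.4 in castrated ducts, 419 and 306 with TP and 359 and 261 with E2 (TP minus castrated 1.59, adjusted p = 0.032). Psmb8, Tap1 and Tap2 rose with TP by 1.40, 1.57 and 1.33 on the log2 scale. B2m and Tapbp fell instead, B2m from 4767 and 5145 to 2269 and 2608 with TP and 2885 and 2925 with E2 (TP minus castrated -1.03, adjusted p = 0.00978). Under quantile normalization the B2m difference turned to 0.34 with TP and 0.33 with E2, and the Tapbp difference with TP turned to 0.28, so their direction depends on the scaling. The dimmer Tapbp probe set, below background on some duct arrays, was 3.83 higher with TP. Psmb8 has 1 and Tap1 has 3 further probe sets that were below background on most arrays. When a gene's probe sets were averaged the TP difference was -1.02 for Psmb8 and -0.83 for Tap1, and the E2 difference -0.61 for Tap1.

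Among transcription factors, Irf8 read 29.7 and 12.9 in castrated ducts, 139 and 131 with TP and 122 and 89.1 with E2. It rose 6.89-fold and 5.32-fold (adjusted p = 0.00951 and 0.0155). Irf7 read 23.1 and 25.7 in castrated ducts, 117 and 109 with TP and 52.8 and 47.9 with E2, a rise of 4.64-fold with TP and 2.06-fold with E2 (adjusted p = 0.00523 and 0.0117). Nlrc5 fell from 1146 and 1309.6 to 498 and 455 with TP and 338 and 249.9 with E2 (adjusted p = 0.00929 and 0.00677), and Irf9 fell with E2 (-0.96, adjusted p = 0.0111).

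Of the effectors, Bst2 read 36.7 and 33.5 in castrated ducts, 247 and 132 with TP and 179.8 and 209 with E2 and rose 5.13-fold with TP and 5.53-fold with E2. Usp18, Ifit2 and the GTPase Irgm1 rose with both hormones, by 1.44, 0.78 and 0.90 with TP and 1.25, 1.06 and 1.18 with E2, and Ifit3 rose with TP (1.72). The direction of Ifit2 with TP turned under quantile normalization (-0.10). Mx2 also passed, but all 4 vehicle duct readings were below background. It read 15.0 and 7.15 with TP and 8.74 and 5.61 with E2, where the vehicle arrays' background was 8.09 to 14.3. Set against the background of the castrated or sham pair in place of its own level there, the ratio was 0.607 to 0.962, so no fold is given. Gbp2 missed the threshold with both hormones (1.43 and 1.50, adjusted p = 0.0694 and 0.0671). Of the class II genes H2-Eb1 rose with TP (1.45, adjusted p = 0.0215) and H2-Ab1 fell with E2 (-0.83, adjusted p = 0.0274). The 2 dimmer probe sets of H2-Ab1 were 0.93 and 0.66 higher with E2 and 2.14 and 1.75 higher with TP, so the hormone difference of this gene depends on the probe set.

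Markers again moved in the same comparisons, in which 23.2% of all genes were called higher and 12.3% lower with TP. With E2 these shares were 20.0% and 10.7%. Of 21 macrophage and dendritic cell markers 11 rose and 1 fell with TP, and 10 rose with E2. Their sums were 5998 and 3885 in castrated ducts, 9722 and 5908 with TP and 9719 and 5768 with E2, and 20 and 19 of the 21 were lower on the second array of each pair. Of the 37 members 29 and 28 were also lower on the second TP and E2 duct arrays, where 53.4% and 54.9% of all genes were higher. In the caput the members and these markers went apart. There 26 and 24 members were lower on the second TP and E2 arrays, while 12 and 15 of the 21 markers were higher. Of 7 endothelial markers 5 rose with either hormone, and their sum went from 810 and 477 in castrated ducts to 1447 and 1167 with TP and 1836 and 1252 with E2. Of 9 B and plasma cell markers 3 rose with TP and 2 with E2, and the sum of the 9 went from 1588 and 1002 to 2886 and 2862 with TP and 2353 and 2246 with E2. Igha alone read 324 and 247 in castrated ducts, 1581 and 1629 with TP and 1208 and 1306 with E2. Of 6 neutrophil markers none passed with TP and 2 rose with E2, with a sum of 120 and 229 in castrated ducts and 1094 and 5107 with E2. Without the first TP array 4 members passed in the TP comparison, beside 13.4% of all genes. Without the first E2 array neither a member nor any other gene of the 18193 passed in the E2 comparison. With 1 castrated array or the second hormone array left out, 10 to 12 passed with TP and 6 to 13 with E2, beside 23.1% to 26.0% and 11.3% to 21.5% of all genes. Of 110 pathway genes outside the list 34 rose and 10 fell with TP, and 30 rose and 9 fell with E2. Of all genes 35.5% and 30.7% were called in either direction, so these counts are near that background. The part of the actin ratio and of the marker levels in these differences was not tested.

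Against sham ducts, TP had 9 members called higher and 5 lower, beside 30.8% of all genes (20.5% higher and 10.3% lower). E2 had 10 higher and 7 lower, beside 27.5% (17.9% and 9.58%). Cd74 and H2-Ab1 were lower in both, at -1.21 and -1.65 with TP and at -1.29 and -2.43 with E2. Their adjusted p-values were 0.029 and 0.00841 with TP and 0.0267 and 0.00939 with E2. The dimmer H2-Ab1 probe sets differed from sham by 0.43 and -0.00 with TP and by -0.78 and -1.09 with E2. Tapbp, B2m and Ifih1 were also lower than sham with both hormones. The Ifih1 readings were 116 and 123 with TP and 130.0 and 104 with E2 against 192 and 245 in sham ducts. Nlrc5 and Irf9 were lower than sham with E2 alone among the calls (-1.39 and -1.05), and the difference between hormones did not pass for either. Bst2, Irf7, Irf8, Irgm1, Mx2, Psmb9, Tap2 and Usp18 were called higher than sham with both hormones, Psmb10 with TP, and Gbp2 and Ifit2 with E2. Tap2 read 14.5 and 14.4 in sham ducts, the first close to that array's background of 14.3. Under quantile normalization the difference turned below 0 for Irgm1 with TP (-0.024) and for Ifit2 and Irf7 with E2 (-0.043 and -0.047). With the mean of its probe sets Tapbp turned to 0.15 with TP and 0.12 with E2. The member medians of 0.16 and 0.67 turned to -0.05 in both comparisons under quantile normalization, and the all-gene medians of 0.23 and 0.27 to -0.00 and 0.00. Without the first TP array no gene of the 18193 passed with TP, and without another array 7 or 8 members did, beside 12.4% to 14.9% of all genes. With E2 no gene passed without the first E2 array and only 1 gene without the second. Without the first or the second sham array 3 members passed, beside 1753 and 2003 of the 18193 genes.

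TP and E2 were compared with each other within the ducts' hormone arrays. No member and no gene passed (0.0%), with 5 members and 1467 genes at an unadjusted p under 0.05, and the member median was 0.08. Irf7 differed most among members above background, reading 117 and 109 with TP and 52.8 and 47.9 with E2 (1.17, interval 0.73 to 1.60, adjusted p = 0.181). Oas2, Cxcl9, Rsad2, H2-Ab1 and Oasl2 followed at -0.98, -0.89, -0.81, 0.78 and 0.76. In the caput Irf7 differed between the hormones by 0.68 (adjusted p = 0.27), also higher with TP.

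Levels of the members were last set side by side in sham mice, where tissue and labelling kit change together. In the sham ducts 9 members were called higher and 8 lower than in the sham caput (45.9%), beside 54.4% of all genes (23.4% higher and 31.0% lower). The all-gene median was -0.30 and the member median -0.27, and quantile normalization brought them to -0.07 and 0.06. All 4 class II genes were among those higher. H2-Ab1 read 2422 and 2631 in ducts and 404 and 342 in caput (6.78-fold), although its 2 other probe sets differed by only 0.23 and 0.76. Cd74 was 5.04-fold higher in ducts, and H2-Eb1 and H2-Aa 2.01-fold and 1.68-fold. The 3 other probe sets of H2-Aa differed by 0.29, -0.32 and 1.31, so its direction depends on the probe set. Nlrc5 had the largest difference on the list, 798 and 729 against 31.2 and 31.3 (24.4-fold, adjusted p = 5.89e-07). Ifit1, Ifih1, Cxcl9 and Tapbp were also called higher in ducts. Cxcl9 was below background on both sham caput arrays, and at least 1.26-fold higher in ducts against that background. Its sham duct readings were 23.7 and 8.80, the second below the caput backgrounds of 10.7 and 12.3, so the fold rests on the first array. The other Cxcl9 probe set read 5.11 and 1.53 in sham ducts, below background. For Tapbp the second probe set pointed the other way by -4.16, and with the mean of both probe sets the sign turned (-1.22). Stat2, Tap2, Irf7, Ddx58, Psmb9, Usp18, Irf1 and Irgm1 were called lower in ducts, Stat2 with only 1 of 2 duct readings above background. Tap2 read 14.5 and 14.4 in ducts against 92.2 and 79.1 in caput, and Irf7 30.0 and 33.4 against 93.3 and 114. The first duct reading of Tap2 was close to the background of that array, 14.3. For Ddx58, 3.01-fold lower in ducts, 1 other probe set gave 1.07 higher. Of the 7 members with several probe sets above background on all arrays, the probe sets had the same sign for 3 in this comparison and for all 7 in the caput comparison of castrated with sham. In the ducts they had it for 4 in TP minus castrated and TP minus sham and for 5 in E2 minus castrated. In the caput it was 5 for TP minus castrated and TP minus sham, and the remaining comparisons had 6 or 7. Without the second sham array of either tissue 11 members passed, and 13 or 15 without another, beside 45.9% to 48.3% of all genes.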

How the data were processed

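The deposited table holds 1 intensity per probe set and array on a linear scale. RMA is named in the submitters' processing notes, with no version. RMA as usually written gives log2 values, so how the authors reached the deposited intensity values is not fully known. Of 45101 probe sets, 34958 carried exactly 1 gene symbol in the platform annotation, 13 of them controls that were left out, and the brightest per gene over all arrays gave 18193 genes. Probe sets of related genes may cross-hybridise. Values were turned to log2 and fitted with limma 3.58.1 in R 4.3.3, with 1 fit per tissue (8 arrays, 4 groups) and 1 fit of all 16 arrays for differences between tissues. Adjusted p is Benjamini-Hochberg over all genes and a gene was called below 0.05. Other steps ran in Python 3.11.15 (pandas 2.3.3), with plots by matplotlib 3.10.9.

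The members, role groups, pathway lists and marker lists were chosen with earlier results of these data known. Every called member was named, and, where fewer than 4 were called, also the 6 members with the largest difference among those above background. Outside the list up to 6 called genes per comparison were named by adjusted p. Other genes outside the list, among them those of counts of 5 or fewer, were chosen after their values were seen. Alternatives were quantile normalization, a filter on the 40% dimmest genes, a floor of 16, the mean of all probe sets, an intensity trend in the variance, other sets of arrays in the fit, the replicate number as a block, and leaving out each array.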

Additional observations from a re-analysis of the deposited data

Results flagged for a closer look

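The castration difference (castrated minus sham, log2) was lower in the efferent ducts than in the caput for 4 members, by a test of that difference across all 16 arrays. The values were -2.21 for Cd74, -2.01 for H2-Eb1, -1.84 for H2-Ab1 and -1.14 for Tapbp, with limma adjusted p of 0.0155, 0.0374, 0.0366 and 0.0185. For Cd74 the call was kept in 6 of 8 fits that left out 1 array, for Tapbp in 3, for H2-Eb1 in 2 and for H2-Ab1 in 1. With the replicate block all 4 calls were lost, at adjusted p of 0.0722, 0.0722, 0.101 and 0.125 in the order above, and no gene of the 18193 passed. Quantile normalization ended the calls of H2-Eb1 and H2-Ab1 (0.0759 and 0.0673), and the mean of all probe sets those of H2-Eb1, H2-Ab1 and Tapbp (0.0518, 0.0544 and 0.296). The means of these 4 genes were lower in castrated than in sham ducts and higher in castrated than in sham caput, and the tissues also differ in labelling kit, so a difference between tissues and a difference between kits cannot be told apart. No group had enough arrays for a check of single outlying arrays.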

How the results depend on the processing

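With 2 arrays per group, the number of members called moved with most choices, and the cause was not tested. Counts below run in the order caput castrated minus sham (6 in the report), caput TP minus castrated (0), E2 minus castrated (0), TP minus E2 (0), TP minus sham (1) and E2 minus sham (7). Without the 40% dimmest genes, which left 31 members, they were 16, 8, 1, 4, 5 and 16, beside 38.1%, 14.9%, 5.28%, 11.6%, 32.7% and 42.4% of all genes, so that TP minus sham lay well below that share. With an intensity trend in the variance they were 14, 9, 1, 3, 6 and 15, beside 24.2%, 9.27%, 3.98%, 7.67%, 21.3% and 27.3%. A floor of 16 gave 1, 1, 1 and 2 in the middle 4, beside 5.09%, 1.89%, 4.29% and 15.1%. Quantile normalization gave 2 and 3 for TP and E2 minus sham (8.0% and 16.2%), and 1 fit of all 16 arrays gave 1 for E2 minus castrated and 4 for E2 minus sham (0.572% and 16.1%). The mean of all probe sets gave 3 for castrated minus sham and 2 for E2 minus sham (8.26% and 11.2%). With only the 4 arrays compared, castrated, TP and E2 minus sham each gave 0, with 0, 7 and 5 of all genes called. In the ducts, castrated minus sham (0) gave 4 without dim genes, 4 with the trend, 1 with the floor and 3 with all 16 arrays (4.49%, 3.84%, 1.32% and 5.45%), and TP minus E2 (0) gave 1 without dim genes, 2 with the floor and 1 with all 16 arrays (0.632%, 0.357% and 0.726%). Quantile normalization gave 11, 5, 5 and 6 for TP and E2 minus castrated (17 and 14) and TP and E2 minus sham (14 and 17), beside 21.9%, 20.0%, 15.0% and 16.5% of all genes, so that the members' share was below that of all genes in the last 3. The 4 arrays alone gave 5, 4, 9 and 10, beside 12.9%, 14.0%, 13.9% and 18.6%, and all 16 arrays 24 for E2 minus castrated (40.7%). The difference of castration between tissues (4) gave 2 with quantile normalization, 8 without dim genes, 7 with the floor and 7 with the trend (2.42%, 9.51%, 8.07% and 6.07%).

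Leaving out 1 array gave 0 to 0 members for castrated minus sham, TP minus castrated, E2 minus castrated, TP minus E2 and TP minus sham in the caput and for castrated minus sham and TP minus E2 in the ducts. It gave 0 to 3 for E2 minus sham in either tissue, 4 to 12 for TP and 0 to 13 for E2 minus castrated ducts, 0 to 8 for TP minus sham ducts, 11 to 15 for the sham tissues and 0 to 5 for the difference of castration between tissues. No gene of the 18193 passed without the first TP array for TP minus sham ducts, or without the first E2 array for E2 minus castrated and E2 minus sham ducts.

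Replicate numbers were checked as pairs by correlating same-numbered arrays' deviations between groups. The correlations were -0.0323 to 0.0217 in the caput and -0.048 to 0.065 in the ducts, so no shared shift was seen. The labels do not say that equal numbers pair animals, and these values cannot show whether they do. With the replicate block, 2 members were called for caput castrated minus sham, 0 for TP minus sham, 3 for E2 minus sham and 0 for the difference of castration between tissues, beside 8.55%, 3.17%, 12.2% and 0.0% of all genes. For the last no gene passed, so the count is no result about the members.

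Of the values of single genes, 1072 kept their direction and side of the threshold, 427 lost the threshold, 38 gained it and 15 turned. Those that turned with quantile normalization were B2m (0.34), Ifit2 (-0.10) and Tapbp (0.28) for duct TP minus castrated, B2m (0.33) for E2 minus castrated, Irgm1 (-0.024) for TP minus sham, and Ifit2 (-0.043) and Irf7 (-0.047) for E2 minus sham. With the mean of all probe sets Psmb8 (-1.02), Tap1 (-0.83) and Tapbp (1.56) turned for duct TP minus castrated, H2-Ab1 (0.25) and Tap1 (-0.61) for E2 minus castrated, Tapbp (0.15 and 0.12) for TP and E2 minus sham and Tapbp (-1.22) between sham tissues. The number of arrays limits the precision, and readings near background have no reliable fold.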
